A study of Mus musculus with 4 samples.

Results

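Chemokine and chemokine receptor genes were compared between splenic regulatory T cells with and without Nrp1 (neuropilin-1), a surface protein that binds semaphorins and VEGF. The genes were chosen by symbol alone: those beginning with Ccl, Cxcl, Xcl, Cx3cl, Ccr, Cxcr, Xcr or Cx3cr and a digit, with a probe set listed for that gene only. This gave 50 of the 18193 genes with a probe set of their own on the array, 33 ligands and 17 receptors, measured by 78 probe sets. All cells were CD4+ Foxp3+ spleen cells of the strain labelled Balb/c Foxp3 GFP, sorted on CD4, on Foxp3 (the master transcription factor of this lineage) and on Nrp1. No treatment is named in the labels. The Nrp1-positive and Nrp1-negative groups had 2 arrays each, 4 in all, numbered replicate 1 and replicate 2 in both groups.

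The mice were 4 to 6 weeks old per the labels, except for the array titled Nrp1-negative replicate 1, whose age is given as 4 to 8 weeks. The source name and cell type of that array read as Nrp1-positive, against its title. The title was used here. Its Nrp1 intensity was 220 and that of Nrp1-negative replicate 2 was 795, against 6074 and 5035 on the Nrp1-positive arrays. Nothing in the labels tells separate mice or sorts apart within a group, so p-values measure only the spread between these arrays, which may be technical.

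Chemokines are small secreted proteins, grouped as CC, CXC, XC and CX3C by the spacing of their first cysteines, and they act through G-protein-coupled receptors on leukocytes. In the spleen, Ccr7 draws T cells to the T cell zone, where its ligands Ccl19 and Ccl21 are made, and Cxcr5 draws cells to B cell follicles along Cxcl13. Regulatory T cells use the same receptors as other T cells to reach lymphoid zones, inflamed tissue and barrier sites such as gut and skin.

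Values are MAS5 signal intensities from the authors, here brought to one trimmed mean on all arrays. A difference is the Nrp1-positive value less the Nrp1-negative one, as log2(intensity + 11.9), a scale that understates the difference of dim genes. A gene was represented by its brightest probe set and tested if the mean log2 level of that probe set was in the upper 50% of all probe sets, at an intensity near 44.2 or more. Of the 50 genes, 22 passed, 12 receptors and 10 ligands. Intensities of different probe sets are not on a common scale, so levels are compared only within a gene.

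No chemokine or chemokine receptor gene passed the test between the groups. In limma with the replicate number as a block and Benjamini-Hochberg adjustment at 0.05, 0 of the 22 were called, where 47 of all 10191 genes tested were (0.461%). At an unadjusted p below 0.05 there were 3 of 22 (13.6%), Ccr7, Cxcr5 and Cxcr4, against 878 of 10191 genes (8.62%). Without the block, 0 of the 22 and 0 of all genes (0%) were called, with 2 and 148 at an unadjusted p below 0.05. The median difference over the 22 genes was −0.05 and the median absolute difference 0.24, against 0.0041 and 0.12 over all genes tested. With 2 arrays a group an exact permutation test of a single gene cannot give a p below 0.333, so no such test was made.

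Ccr7 and Cxcr5, receptors that place lymphocytes in the T cell zone and in B cell follicles, had the lowest adjusted p-values of the family. Ccr7 had an intensity of 3969 and 3664 in Nrp1-negative replicates 1 and 2 and of 2942 and 2471 in Nrp1-positive replicates 1 and 2. Both Nrp1-positive arrays lay under both Nrp1-negative arrays, with means of 2707 ± 333 and 3816 ± 216 (SD, n = 2). The Ccr7 difference was −0.50, or 1.41-fold, with −0.43 between the arrays numbered 1 and −0.57 between those numbered 2. In limma with the block its standard error was 0.10, its adjusted p = 0.0923 and its 95% interval −0.73 to −0.27.

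Cxcr5 intensity was 575 and 742 in Nrp1-negative replicates 1 and 2, and 358 and 462 in Nrp1-positive replicates 1 and 2. Here too the groups did not overlap. The Cxcr5 difference of −0.67 (1.59-fold, standard error 0.13, adjusted p = 0.0907 in limma with the block) was nearly the same for both replicate numbers, at −0.67 and −0.67. Each of the 2 genes had a single probe set of its own. They were called lower after quantile normalisation (adjusted p = 0.00911 for Ccr7 and 0.0158 for Cxcr5 in limma), where 0.648% of all genes were called lower. They were also called lower in limma when all probe sets of each gene were averaged (adjusted p = 0.0186 and 0.0162), with 0.463% of all genes called lower. In the other settings they were not, with adjusted p from 0.0627 to 1.00 in limma. Whether the genes were called thus depended on the setting. Both were lower in Nrp1-positive cells in every setting, but most settings could not turn their sign. The block, the trend, the filter and the averaging of probe sets leave the difference of a gene with a single probe set unchanged. Leaving out or relabelling an array cannot turn a gene whose groups do not overlap. Only quantile normalisation and the other pseudocounts recomputed the values.

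**Figure D1:**
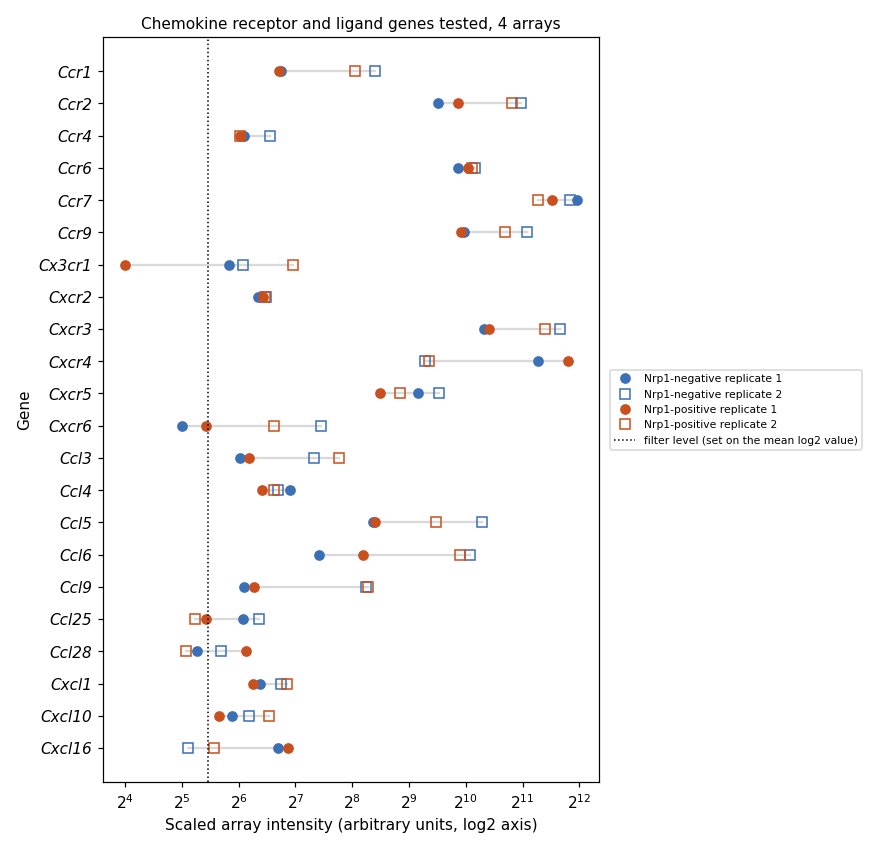
Scaled intensity (log2 axis) of the 12 receptor and 10 ligand genes tested, 1 symbol per array; blue is Nrp1-negative, orange Nrp1-positive, filled circles are arrays numbered 1, open squares arrays numbered 2, and the dotted line is the filter level. Ccr7 and Cxcr5 have both orange symbols left of both blue ones, and Cxcr4, Ccl5, Ccl6 and Ccl9 separate by replicate number instead.

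Cxcr4, the receptor for Cxcl12 that holds cells in bone marrow and other niches, separated by replicate number. In replicate 1 its intensity was 2474 (Nrp1-negative) and 3558 (Nrp1-positive), and in replicate 2 it was 621 and 650. The shift between replicate numbers was −2.20 on the log2 scale, or 4.60-fold. The group difference was 0.52 between the arrays numbered 1 and 0.06 between those numbered 2, with a mean of 0.29 ± 0.13 (standard error) and an adjusted p = 0.579 in limma with the block.

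Among receptors that lead T cells to inflamed or barrier tissue, Cxcr3, Ccr9 and Ccr6 had groups that overlapped. Cxcr3, the receptor for interferon-induced Cxcl9, Cxcl10 and Cxcl11, had intensities of 1281 and 1360 in Nrp1-negative and Nrp1-positive replicate 1, and 3240 and 2706 in replicate 2. Ccr9, the receptor that leads T cells to the small intestine, had 996 and 968 in replicate 1 and 2159 and 1662 in replicate 2. Ccr6, the receptor for Ccl20, had 931 and 1055 in replicate 1 and 1145 and 1102 in replicate 2. The mean differences were −0.09 for Cxcr3, −0.21 for Ccr9 and 0.06 for Ccr6, with 95% intervals of −0.35 to 0.17, −0.48 to 0.06 and −0.20 to 0.33. None of these 3 intervals reaches −0.50, the difference of Ccr7, though that of Ccr9 comes close and rests on its brightest probe set. The interval of Ccr7 itself, −0.73 to −0.27, overlaps those of Cxcr3 and Ccr9. Whether these genes differed less than Ccr7 was not tested. Ccr9 has 5 probe sets, 3 of them past the filter. The others past the filter gave −0.29 and −0.07 in replicate 1, and −0.47 and −0.27 in replicate 2. Those under the filter gave −0.12 and 2.06 in replicate 1, and 0.74 and −0.06 in replicate 2.

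Ccr4, the receptor for Ccl17 and Ccl22, and Cxcr6, the receptor for the membrane-bound ligand Cxcl16, were dimmer and less precise. Ccr4 had 68.7 and 94.2 in Nrp1-negative cells against 65.2 and 64.7 in Nrp1-positive cells, so its groups did not overlap, by a small margin. Its difference was −0.27 with a standard error of 0.31. Cxcr6 had 31.99 and 175 in Nrp1-negative cells against 42.9 and 98.3 in Nrp1-positive cells at its brightest probe set, with differences of 0.32 and −0.76 in the 2 replicate numbers. A second Cxcr6 probe set past the filter gave −1.44 and −1.10, with 79.6 and 104 against 21.8 and 42.2. The 2 probe sets of Cxcr6 thus went opposite ways among the arrays numbered 1, and no single direction can be given for it.

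Receptors known from monocytes, neutrophils and other innate cells showed no common direction either. Ccr2, the monocyte receptor for Ccl2 that effector T cells also carry, had 733 and 937 in replicate 1 and 2006 and 1804 in replicate 2, Nrp1-negative first. Its 4 probe sets gave differences from 0.29 to 0.95 in replicate 1 and from −0.15 to 0.05 in replicate 2. Ccr1, which binds Ccl3, Ccl5 and Ccl9, had 108 and 105 in replicate 1 and 337 and 265 in replicate 2. Cx3cr1, the receptor for Cx3cl1, had 56.7 and 16.1 in replicate 1 but 67.4 and 124 in replicate 2, so its difference turned from −1.30 to 0.77. A second Cx3cr1 probe set, under the filter, gave 0.57 in replicate 1 and 1.42 in replicate 2. Cxcr2, a neutrophil receptor, ranged only from 81.3 to 89.9 over the 4 arrays.

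**Figure D2:**
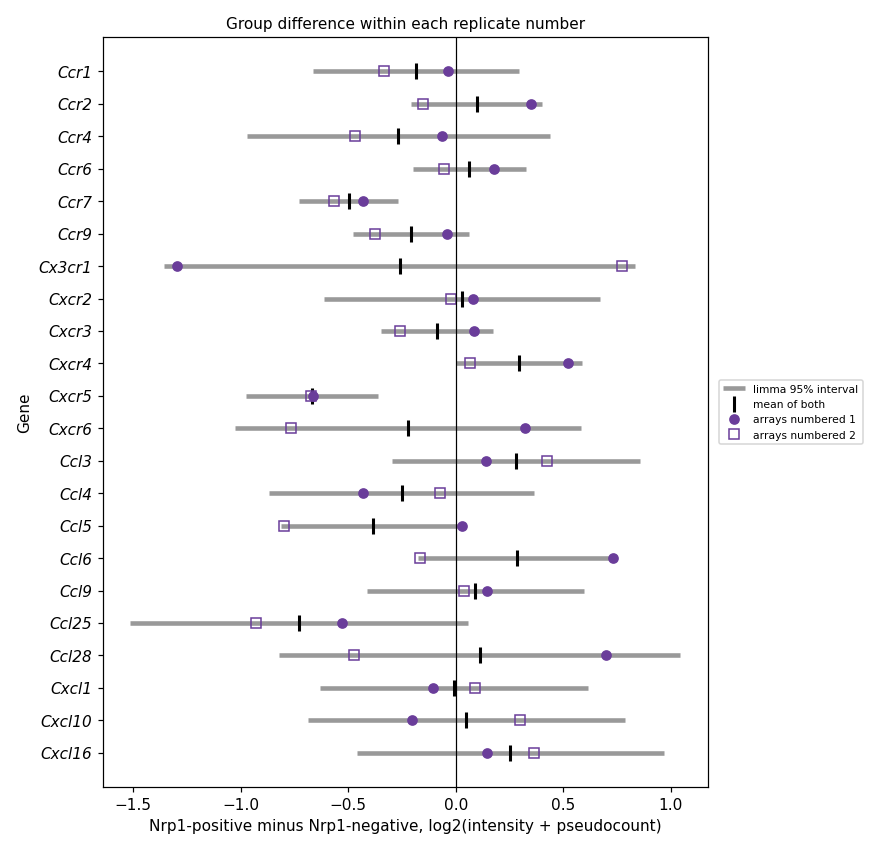
Nrp1-positive minus Nrp1-negative difference in log2(intensity + pseudocount) for each gene tested, between the arrays numbered 1 (filled circles) and numbered 2 (open squares), with their mean (black bar) and its limma 95% interval (grey). Before adjustment, the intervals of Ccr7 and Cxcr5 lie wholly below 0 and that of Cxcr4 just above 0 (0.00048 to 0.59). The symbols of Cxcr5 coincide at −0.67.

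Among the ligands that T cells and natural killer cells secrete, Ccl5 was lower in Nrp1-positive cells on the arrays numbered 2 only. Ccl5 had 329 and 337 in replicate 1 and 1253 and 715 in replicate 2, Nrp1-negative first, with a mean difference of −0.38 (standard error 0.19, adjusted p = 0.633 in limma with the block). Ccl3 and Ccl4, ligands induced by activation, differed by 0.28 and −0.25. Ccl3 had 65.05 and 72.9 in replicate 1 and 160 and 218 in replicate 2. Ccl4 had 119 and 104 in Nrp1-negative cells against 85.4 and 98.1 in Nrp1-positive cells, which did not overlap but lay close together.

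Ccl6 and Ccl9, ligands made mainly by myeloid cells in mice, had overlapping groups and separated by replicate number. Ccl6 had 172 and 293 in replicate 1 and 1077 and 959 in replicate 2, Nrp1-negative first, and Ccl9 had 68.4 and 76.8, then 303 and 312. Their shifts between replicate numbers were 2.12 and 1.92, against group differences of 0.28 and 0.09. The Ccl6 value is the mean of opposite signs, 0.73 in replicate 1 and −0.16 in replicate 2.

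Of the remaining ligands tested, Ccl25 had the largest difference in size of all 22 genes, at −0.73. Ccl25, the ligand of Ccr9 made by thymic and gut epithelium, had 67.6 and 82.0 in Nrp1-negative cells against 43.2 and 37.5 in Nrp1-positive cells, which did not overlap. Both Nrp1-positive values lie under the filter level of 44.2, so Ccl25 passed the filter only through its Nrp1-negative arrays. At this level, close to the filter, its standard error was 0.35 and its adjusted p = 0.614 in limma with the block. A second Ccl25 probe set gave −1.56 and −0.21 in replicates 1 and 2. Ccl28, Cxcl1, Cxcl10 and Cxcl16, ligands of epithelial, inflammatory or antigen-presenting cells, differed by 0.11, −0.0077, 0.05 and 0.25. All 4 overlapped between groups, and Cxcl16 was higher in replicate 1 (104 and 116) than in replicate 2 (34.3 and 47.6).

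Groups that do not overlap were about as common in the family as on the array. The 5 genes were Ccr7, Cxcr5, Ccr4, Ccl4 and Ccl25, or 22.7% of 22, where 21.1% of all genes tested did not overlap. All 5 were lower in Nrp1-positive cells, while of all genes 929 were lower and 1218 higher. Of the 5, Ccl25 passed the filter only through its Nrp1-negative arrays. Both replicate numbers gave the same sign in 11 of the 22 genes (50%), 7 lower and 4 higher, against 53.9% of all genes.

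The replicate number separated more of these genes than Nrp1 did. Both arrays numbered 2 lay above both numbered 1 in 14 of the 22 genes and below them in 2, Cxcr4 and Cxcl16, which makes 72.7%, against 63.3% of all genes. Over all genes the directions were even, with 3183 above and 3271 below. The shift was larger than the group difference in 17 of the 22 genes (77.3%), and in 71.9% of all genes. Its median size was 1.05 in the family and 0.28 over all genes tested. Cxcr6 (1.55), Ccl5 (1.48), Ccr1 (1.39), Ccl3 (1.30), Cx3cr1 (1.24), Ccr2 (1.19), Cxcr3 (1.16) and Ccr9 (0.94) followed Ccl6 and Ccl9 among the genes higher on the arrays numbered 2. The second Cxcr6 probe set past the filter overlapped between replicate numbers, with 79.6 and 21.8 in replicate 1 and 104 and 42.2 in replicate 2, Nrp1-negative first. The Cx3cr1 shift was 2.28 in Nrp1-positive cells and 0.21 in Nrp1-negative cells.

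Markers of myeloid cells moved the same way as most of these genes. All 9 myeloid markers tested, of 10 listed, were higher on both arrays numbered 2. Their median shift was 1.76. In replicate 1 they summed to 8460 (Nrp1-negative) and 10257 (Nrp1-positive), and in replicate 2 to 35093 and 32900. These sums, like those of other markers below, add probe sets on no common scale, and S100a8 and S100a9 make up most of each myeloid sum. Lyz2, the lysozyme of macrophages and neutrophils, had 707 and 1041 in replicate 1 and 5845 and 5528 in replicate 2. Between the groups, 0 of the 9 were called. The part of myeloid RNA in these values was not tested. In sorted bulk cells, the number of cells of a type and the RNA per cell cannot be told apart. Ligand RNA in a spleen sort can come from other cells, and its origin was not tested.

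The 3 conventional dendritic cell markers tested were also higher on both arrays numbered 2, with a median shift of 1.65, as in Itgax (46.9 and 33.4 in replicate 1, 195 and 116 in replicate 2, Nrp1-negative first). Plasmacytoid dendritic cell markers went the other way, with 2 of 3 tested lower on both arrays numbered 2. One of them was Bst2, which is also interferon-induced, with 713 and 647 in replicate 1 and 112 and 129 in replicate 2. Summed B cell markers ranged from 339 to 498 over the arrays, with 2 of 8 tested and Cd79a and Ms4a1 among those under the filter. Of the 2 tested, Cd79b had 116 and 183 in Nrp1-negative cells against 180 and 255 in Nrp1-positive cells. Cd22, the other, had 69.8 and 83.7 against 75.2 and 108, and 0 of the 2 were called. Summed CD8 T and natural killer cell markers ranged from 623 to 903, and summed stroma and endothelium markers, with 1 of 7 tested, from 531 to 696. The sort marker Cd4 had 1429 and 1470 in replicate 1 and 470 and 491 in replicate 2, a shift of −1.57. The T cell gene Cd3e had 3408 to 5211 on the 4 arrays, while the Foxp3 probe set was under the filter on all of them, at 1.40 to 23.6. The control probe sets at the ends of Gapdh gave a 3-prime over 5-prime ratio of 1.74 and 1.54 in replicate 1, and of 0.763 and 0.711 in replicate 2. The part of RNA quality or labelling in the shift was not tested.

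**Figure D3:**
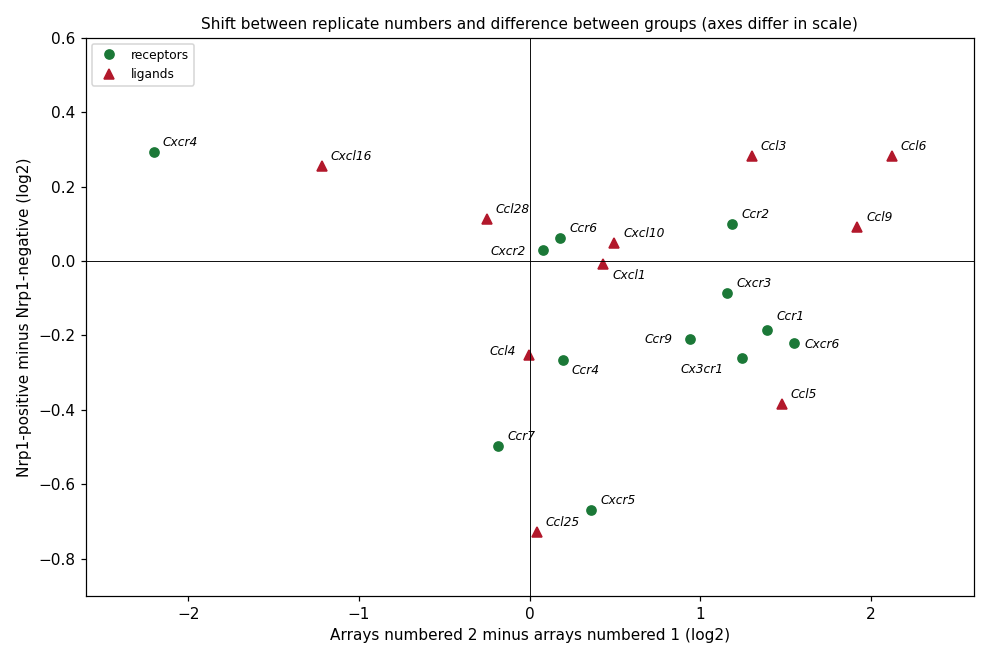
For each gene tested, the shift from the arrays numbered 1 to those numbered 2 (horizontal, log2) against the Nrp1-positive minus Nrp1-negative difference (vertical, log2, on a wider scale); circles are receptors and triangles ligands. Cxcr4 at −2.20 and Ccl6 at 2.12 mark the ends of the horizontal axis, and Ccr7, Cxcr5 and Ccl25 lie lowest with small horizontal shifts.

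Some of the genes higher on the arrays numbered 2 are neighbours. In RefSeq (GRCm38.p6), Ccl5, Ccl9, Ccl6, Ccl3 and Ccl4 lie side by side, and all but Ccl4 (shift −0.0030) were higher on the arrays numbered 2. The receptor genes Ccr9, Cxcr6, Xcr1, Ccr1, Ccr1l1, Ccr3 and Ccr2 also lie in one cluster. The 4 tested among them, Ccr9, Cxcr6, Ccr1 and Ccr2, were higher on the arrays numbered 2 at their brightest probe sets. Under the filter, Xcr1 was lower there (shift −0.78), and Ccr1l1 and Ccr3 overlapped between replicate numbers. Such a rise was seen in 14 of all 22 family genes tested and in 3183 of all 10191 genes. A part of gene position in the shift was not tested. RefSeq promoter sequences were available for 17 of the 22 genes tested, as 19 windows of the 250 bases before a gene's start, while Ccl4, Ccl5, Ccr7, Cxcl16 and Cxcr5 had no entry. The windows of Ccl6, Ccl9 and Cxcr3, which were higher on the arrays numbered 2, and of Cxcr4, which was lower, are shown because these genes shifted in opposite directions. The windows are Ccl6 at chr11:83593088-83593337 (minus strand), Ccl9 at chr11:83578637-83578886 (minus), Cxcr3 at chrX:101734148-101734397 (minus) and Cxcr4 at chr1:128592300-128592549 (minus), each written 5′ to 3′ on the gene's strand. Capitals mark matches on either strand to 6 motifs: E-box CAGNTG, KLF-type CACCC, ETS GGAAGT, forkhead TGTTTAC, AP-1 TGANTCA and the NF-kB motif. No matches overlapped in these windows.
Ccl6: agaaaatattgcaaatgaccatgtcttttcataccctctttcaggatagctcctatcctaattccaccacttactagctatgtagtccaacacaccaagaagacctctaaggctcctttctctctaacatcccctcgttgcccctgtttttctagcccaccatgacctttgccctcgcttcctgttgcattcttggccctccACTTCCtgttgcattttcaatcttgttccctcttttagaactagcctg
Ccl9: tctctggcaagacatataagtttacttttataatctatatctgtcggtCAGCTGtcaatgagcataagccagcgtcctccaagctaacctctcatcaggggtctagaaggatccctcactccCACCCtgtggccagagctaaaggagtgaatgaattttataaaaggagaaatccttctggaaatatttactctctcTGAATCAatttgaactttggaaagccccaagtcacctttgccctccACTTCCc
Cxcr3: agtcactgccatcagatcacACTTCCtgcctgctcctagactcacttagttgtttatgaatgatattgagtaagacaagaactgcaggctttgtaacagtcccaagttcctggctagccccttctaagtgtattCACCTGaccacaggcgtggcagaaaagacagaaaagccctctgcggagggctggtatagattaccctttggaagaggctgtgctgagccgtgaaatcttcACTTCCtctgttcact
Cxcr4: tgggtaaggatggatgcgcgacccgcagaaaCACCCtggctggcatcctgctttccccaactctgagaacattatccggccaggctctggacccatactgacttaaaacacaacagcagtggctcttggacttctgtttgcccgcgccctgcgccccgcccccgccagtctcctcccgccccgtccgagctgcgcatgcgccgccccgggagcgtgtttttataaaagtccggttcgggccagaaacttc

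Ccl6 has 1 ETS match, Ccl9 has 1 match each to the E-box, KLF-type, ETS and AP-1 motifs, Cxcr3 has 2 ETS matches and 1 E-box, and Cxcr4 has 1 KLF-type match. An ETS match was present in 8 of the 19 windows (42.1%) and in 19.7% of 32851 windows of all genes, and an E-box in 11 (57.9%) and 44.8%. A KLF-type match was present in 52.6% of the 19 and 52.0% of all windows, an AP-1 match in 15.8% and 6.75%, an NF-kB match in 5.26% and 0.356%, and a forkhead match in 0% and 3.17%. These are matches of letters, and binding was not measured.

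The other 28 genes, 5 receptors and 23 ligands, had a brightest probe set under the filter, with intensities from 0.825 to 75.2 on single arrays. Among the receptors, Ccr8, the receptor for Ccl1 known from activated and tissue regulatory T cells, had 32.1 and 47.6 in Nrp1-negative cells against 70.1 and 32.9 in Nrp1-positive cells. Ccr10, which binds Ccl27 and Ccl28 in skin and mucosa, had 2.98 and 71.1 against 52.9 and 67.2. Ccr3, the eotaxin receptor, had 2.38 and 20.9 against 29.9 and 29.97. Xcr1, a receptor of cross-presenting dendritic cells, had 24.0 and 21.3 against 25.5 and 1.83, and Ccr1l1, a gene similar to Ccr1, had 5.02 and 11.8 against 5.83 and 3.12. Of these 5 receptors only Ccr3 had groups that did not overlap, with both Nrp1-positive arrays higher. It was not called when the filter was dropped (adjusted p = 0.790 in limma with the block). All 5 lay under the filter and were left out of the main fit. The background level of the array was not measured, so no order of the groups is drawn from them.

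Ccl20, Ccl2 and Cxcl13, singled out after their values were seen, had groups that did not overlap. Ccl20, the ligand of Ccr6, had 31.1 and 75.2 in Nrp1-negative cells against 7.56 and 6.37 in Nrp1-positive cells. Ccl2, the ligand of Ccr2, had 29.2 and 26.1 against 3.42 and 1.11. Cxcl13, the follicular ligand of Cxcr5, had 31.7 and 12.7 against 72.1 and 45.4. When the filter was dropped, limma with the block gave differences of −1.70, −1.48 and 1.08 with adjusted p of 0.436, 0.435 and 0.686, and 0 of the 3 were called. A second Cxcl13 probe set gave −0.10 in replicate 1 and 0.32 in replicate 2. In all, 8 of the 28 had no overlap (28.6%), 4 lower and 4 higher in Nrp1-positive cells, against 29.8% of all 8002 genes under the filter.

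**Figure D4:**
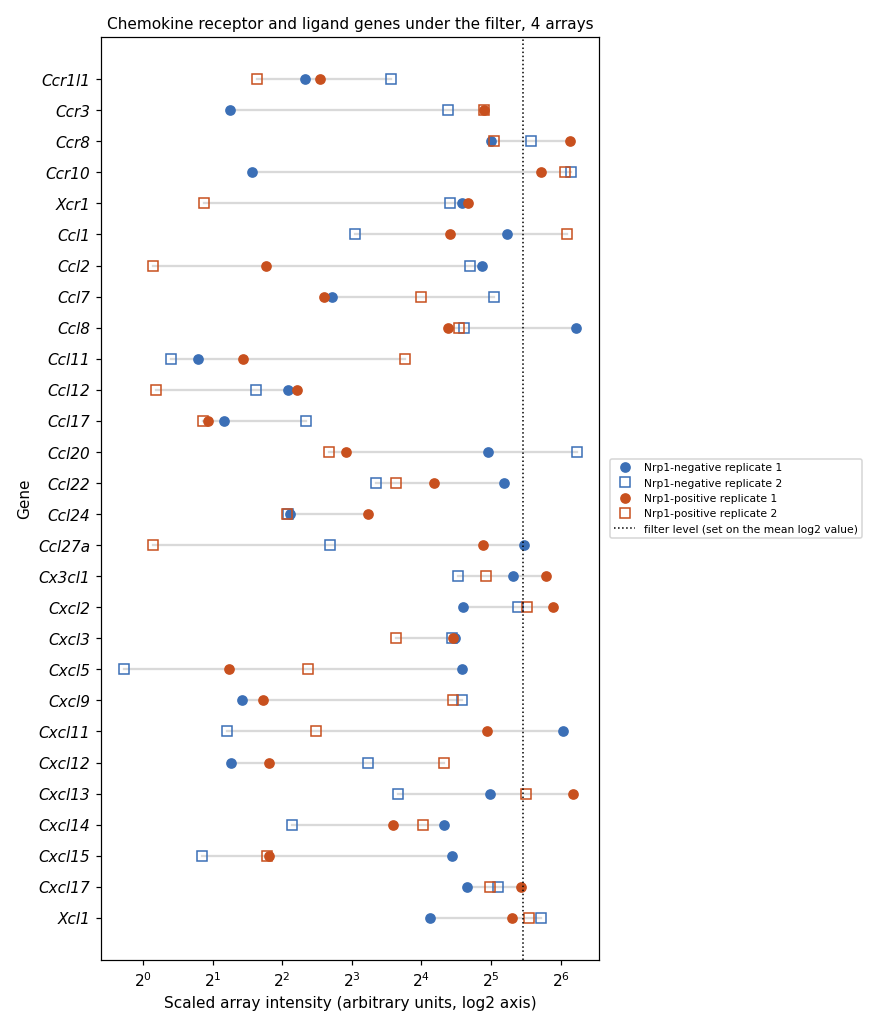
Scaled intensity (log2 axis) of the 28 genes whose brightest probe set was under the filter, with the symbols blue for Nrp1-negative, orange for Nrp1-positive, filled for arrays numbered 1 and open for arrays numbered 2. Ccl2 and Ccl20 have both orange symbols left of both blue ones, Cxcl13 has them on the right, and the spread within a group often spans several doublings.

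Lists of genes that act with chemokine receptors held 1 called gene. Of 29 genes of G protein signalling, all tested, 1 was higher, 0 were lower and 28 did not pass, with a median difference of 0.04. The called gene was Tiam1, an exchange factor that activates Rac. It had 2229 and 3453 in Nrp1-negative cells against 3575 and 5301 in Nrp1-positive cells, a difference of 0.65 (standard error 0.10, limma adjusted p = 0.0345), with 0.68 and 0.62 in the 2 replicate numbers. On the mean of its probe sets Tiam1 differed by 0.15 and was not called (adjusted p = 0.952 in limma). It was also not called without the block or without the mean-variance trend.

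Of 13 regulators that dampen these receptors 11 were tested and 0 were called, with Rgs16 at 0.45 and the receptor kinase gene Grk5 at −0.41. The Rgs16 value is the mean of opposite signs, 1.06 in replicate 1 and −0.16 in replicate 2. Of 10 other migration receptors 7 were tested and 0 were called. Gpr15, a gut-homing receptor, differed by 0.50, and Gpr183, the oxysterol receptor that positions cells at the follicle border, by −0.43 (limma adjusted p = 0.237). Gpr183 had 730 and 1227 in Nrp1-negative cells against 567 and 857 in Nrp1-positive cells. Of 10 atypical receptors and chemokine-like genes 5 were tested and 0 were called, with Ccrl2 at 0.44 and the platelet chemokine gene Pf4 at −0.36. Ccrl2 too had opposite signs, 0.97 in replicate 1 and −0.08 in replicate 2.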

How the data were processed

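RNA from the 4 sorted samples was hybridised to 1-colour Affymetrix arrays, per the labels' protocols. The deposited values are signal intensities on a linear scale made by the authors with MAS5, per the submitters' processing notes (settings not given in the sources used here). The trimmed mean (2% off each end) of the deposited intensities was 500 on both arrays numbered 1 and 150 on both numbered 2, so all were scaled to 325. Of 45101 probe sets, 34945 name a single gene, 932 name more than 1, 9160 name none here and 64 are controls. The pseudocount was 0.25 of the mean array median. Fits used limma 3.58.1 in R 4.3.3 across all 10191 genes tested, two-sided, with group and replicate number as terms and a mean-variance trend, and the code was tested on simulated data. One residual degree of freedom joined 8.01 from the prior, so standard errors rest mostly on genes of similar level. The replicate number was a block because the groups were to be compared within it. Without the block or without the trend, 0 genes were called. Alternatives are given in the closing section. Genes tested, the 12 receptors and 10 ligands, were all named, then receptors under the filter, and of each pathway list the called genes or else the 2 of largest difference; Ccl2, Ccl20, Cxcl13 and the second probe sets were added after their values were seen. The genes and lists were chosen with earlier results of these data known. Plots used matplotlib 3.10.9.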

Additional observations from a re-analysis of the deposited data

Results flagged for a closer look

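Of 4 probe sets of the family listed with several genes, which the comparisons did not use, 2 had groups that did not overlap. They were singled out after their values were seen. These 2 probe sets are listed with several copies of Ccl27, a skin chemokine that binds Ccr10, and so belong to no single gene. One had 16.1 and 13.4 on the Nrp1-negative arrays against 44.8 and 34.7 on the Nrp1-positive ones, a mean difference of 0.95 on the log2 scale. The other had 4.43 and 3.43 against 24.1 and 19.8, a difference of 1.09. Both lie below the filter, at percentiles 41.1 and 24.0 of mean level. The probe set listed with Ccl27a alone went the other way, with 44.4 and 6.43 against 29.5 and 1.10. The other 2, listed with Ccl21 copies and with Ccl19 among others, gave −0.54 and −0.32 in replicate 1, and 0.06 and 0.54 in replicate 2. Of all genes under the filter, 29.8% had groups that did not overlap. No test was made of these probe sets.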

How the results depend on the processing

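The number of genes of the family called was 0 in 11 of the 13 alternatives and 2 (Ccr7 and Cxcr5) with quantile normalisation and with the mean of probe sets. Each of the 2 genes has a single probe set, so averaging left their differences at −0.50 and −0.67. Only the rest of the fit changed there, with 9498 genes tested in place of 10191. What in each fit moved the calls was not tested. Over all genes the 47 calls became 0 with no replicate block, without the mean-variance trend, and when the array with conflicting labels was moved to the Nrp1-positive group. They became 184 with quantile normalisation, 115 with the mean of probe sets, and 73 and 81 with a pseudocount of 0.05 of the median and one equal to it. Deviations from the group means of same-numbered arrays had a correlation of 0.734 across genes, with only 1 pair of deviations to compare. The 5 genes of the family without overlap became 13 of 50 with no filter (26%, and 24.9% of all genes), and 2 of 11 with a filter at percentile 65 (18.2%, and 20.0025% of all genes). With the relabelled array, where 1 array stands against 3, they became 14 of 22 (63.6%, and 53.8% of all genes). This count does not depend on the block or the trend. The difference of Cxcr2 was −0.0115 with quantile normalisation and that of Ccr9 was 0.11 with the mean of probe sets. The other 20 genes kept their direction in each such setting that tested them. Dropping the block or the trend, or changing the filter, leaves a difference unchanged, so these settings could not turn a gene. The filter at percentile 65 left 11 genes of the family, and the mean of probe sets left 18. With the relabelled array, whose fit rests on the arrays numbered 2, Ccl28 was −0.47, Ccl6 −0.16, Ccr2 −0.15, Ccr6 −0.0543, Cxcr2 −0.0203, Cxcl1 0.0894 and Cx3cr1 0.77.

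Leaving out an array with the block in place leaves no residual degrees of freedom, and the value is then the difference within the other replicate number. Without the block, leaving out each array in turn mixes the replicate number with the group. Calls over all genes then ran from 0 to 1, and the genes of the family without overlap from 11 to 16 of 22 (50% to 72.7%), against 54.97% to 65.3% of all genes. The difference ran from −0.31 to 0.53 for Ccl28, −0.44 to 1.00 for Ccl3, −1.33 to 0.56 for Ccl5, −1.001 to 1.57 for Ccl6, −0.90 to 1.08 for Ccl9, −0.95 to 0.59 for Ccr1, −0.62 to 0.82 for Ccr2, −0.0853 to 0.21 for Ccr6, −0.76 to 0.34 for Ccr9, −1.40 to 0.88 for Cx3cr1, −0.27 to 0.26 for Cxcl1, −0.32 to 0.42 for Cxcl10, −0.41 to 0.92 for Cxcl16, −0.0338 to 0.0935 for Cxcr2, −0.75 to 0.58 for Cxcr3, −0.92 to 1.51 for Cxcr4 and −1.27 to 0.82 for Cxcr6. Direction was kept by Ccr7 (−0.62 to −0.37), Cxcr5 (−0.85 to −0.49), Ccl25 (−0.85 to −0.61), Ccl4 (−0.34 to −0.16) and Ccr4 (−0.46 to −0.07). These are the genes of the family whose groups do not overlap, so leaving out an array could not turn their sign. Their kept direction adds nothing to that count. Tiam1, whose groups did not overlap either, ran from 0.33 to 0.96.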
